A study of Mus musculus with 7 samples.

Results

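The natriuretic peptide system was followed through 7 genes, namely the peptide genes Nppa, Nppb and Nppc, the receptor genes Npr1, Npr2 and Npr3, and the protease gene Corin. All non-control probes that the scanner files assign to these genes were taken, which gave 13 probes of 56605 on the array. Messenger RNA was measured on 7 one-colour Agilent arrays, 4 from double knockout and 3 from wild type hearts. In the knockout animals, labelled Mutant and heart Tg + Tamoxifen, Brg1 (gene Smarca4) was deleted in adult mice by tamoxifen through MHC Cre-ERT, on a background already null for Brm (gene Smarca2). Wild type animals are labelled heart NTg + Tamoxifen, so both groups received tamoxifen, and no source used here says whether they carried Brm. All animals were adult females, and age in weeks and time after tamoxifen are not stated. Brg1 and Brm are the alternative ATPase motors of SWI/SNF chromatin remodelling complexes, and a myosin heavy chain promoter limits Cre to cardiomyocytes, so other cells of the heart keep Brg1. The knockout arrays are titled Mutant_175, Mutant_182, Mutant_187 and Mutant_188, while Wild Type_181, Wild Type_183 and Wild Type_189 are the wild type arrays. Values per array follow this order throughout.

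Natriuretic peptides are hormones of the heart that promote salt and water loss, widen blood vessels and restrain growth of the myocardium. Atrial natriuretic peptide (ANP, from Nppa) and B-type natriuretic peptide (BNP, from Nppb) are made by cardiomyocytes as larger precursors, and C-type natriuretic peptide (CNP, from Nppc) mainly by endothelium and other tissues. Corin is a membrane-bound serine protease of cardiomyocytes that cleaves pro-ANP to the active hormone. NPR-A (Npr1) and NPR-B (Npr2) are membrane guanylyl cyclases that raise cyclic GMP, NPR-A on binding ANP or BNP and NPR-B on binding CNP. NPR-C (Npr3) lacks the cyclase and removes the peptides from the circulation. In adult mouse heart Nppa is abundant in the atria and low in the ventricle, and ventricular Nppa and Nppb rise under load, which makes them standard markers of cardiac stress.

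Nppa and Nppb lie next to each other and on the same strand of mouse chromosome 4, and their promoters are shown because both genes were higher in knockout hearts. The sequences are from RefSeq (assembly GRCm38.p6), the plus strand from 250 bases before to 50 bases after the start of each gene, at chr4:148000472-148000771 for Nppa and chr4:147985650-147985949 for Nppb. Capitals mark matches on either strand to GATAA (the core bound by GATA factors), AAGTG (Nkx2-5), GGTGTGA (T-box factors), CATTCC (TEAD factors) or TATAAA (the TATA box).
Nppa promoter: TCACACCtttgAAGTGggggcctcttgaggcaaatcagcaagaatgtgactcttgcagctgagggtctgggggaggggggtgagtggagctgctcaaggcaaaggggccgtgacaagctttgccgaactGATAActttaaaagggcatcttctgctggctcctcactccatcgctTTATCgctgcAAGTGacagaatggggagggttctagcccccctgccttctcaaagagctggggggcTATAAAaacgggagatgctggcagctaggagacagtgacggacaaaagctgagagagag
Nppb promoter: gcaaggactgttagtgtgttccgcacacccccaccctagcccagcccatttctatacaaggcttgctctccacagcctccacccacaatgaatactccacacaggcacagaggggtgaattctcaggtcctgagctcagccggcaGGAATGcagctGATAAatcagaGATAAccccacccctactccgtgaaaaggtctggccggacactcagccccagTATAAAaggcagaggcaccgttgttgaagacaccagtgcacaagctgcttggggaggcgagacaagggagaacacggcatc
Both windows held 2 matches to GATAA and 1 to TATAAA, with none overlapping another motif. GATAA occurred in 25.4% and TATAAA in 13.6% of all 32851 promoter windows of this length. The Nppa window also held 2 matches to AAGTG (46.4% of windows) and 1 to GGTGTGA (3.98% of windows), and the Nppb window 1 to CATTCC (14.7% of windows). Exact matches to the AP-1 motif TGANTCA and the CArG box of serum response factor were searched for as well, and neither had one in these 2 windows. Near matches, such as ctttaaaagg in the Nppa window for the CArG box, were not counted, so the absence of a site cannot be read from this. Promoters of the other 5 genes were matched too. That of Nppc held 1 match to TATAAA, and those of Corin, Npr1, Npr2 and Npr3 held none of these motifs. These are letter matches and no measure of binding.

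Each level below is a probe's processed signal divided by the 75th percentile of its own array, so levels can be compared between arrays but not between probes. A gene was called higher or lower at an adjusted p under 0.05 (limma over 22971 genes, Benjamini-Hochberg adjustment), and its log2 fold change is knockout minus wild type. The percentile lay between 837.5 and 1147 signal units on knockout arrays and between 629.6 and 713 on wild type arrays, and 58.1% to 63.6% of spots were well above background. The deletion was visible in Smarca4, at 5.87, 10.3, 14.95 and 8.25 in knockout hearts against 34.7, 32.8 and 34.2 in wild type hearts (log2 fold change -1.87, adjusted p = 0.0021 by limma). Smarca2 signal was 2.002, 2.21, 1.89 and 2.01 in knockout and 2.04, 1.82 and 1.90 in wild type hearts (adjusted p = 0.59 by limma), and whether its probe lies in the deleted part of Brm was not tested. Although the labels name cardiomyocytes, they describe a tissue RNA kit and no isolation of cells, and markers of endothelium, fibroblasts and smooth muscle were detected. All 7 arrays share 1 slide and 1 scan, with knockout arrays in slide row 2 and wild type arrays in slide row 1, so slide row and genotype cannot be told apart. Nothing beyond the numbers in the titles states separate animals, so the p-values reflect only how far these samples vary, which may be technical.

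Of the 7 genes, 6 had a probe well above background on at least 3 arrays and were tested. Nppa and Nppb, the cardiac hormone genes, were called higher in knockout hearts, and Corin, the activator of pro-ANP, was called lower. Npr1, Npr2 and Npr3 were not called, and Nppc was not tested. The count of 2 of 6 called higher stands beside 16.3% of all genes called higher, and 1 of 6 called lower beside 25.8% called lower, so calls were common on these arrays and the count for the 6 genes is small. Of the 12 probes tested, 4 were called higher and 2 lower, beside 16.5% and 24% of all 34481 probes tested. The groups did not overlap for 3 of the 6 genes, namely Nppa and Npr2 (higher, beside 19.6% of all genes) and Corin (lower, beside 31.6%), and for 5 of the 12 probes, beside 49.7% of all probes. The median log2 fold change over all genes was -0.12. Scaling the arrays to 7 spike-in probes, RNA added in known amounts before labelling, moved that median to 0.44, raised the calls of higher genes to 8538 (37.2%) and reduced those of lower genes to 1710 (7.44%).

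**Figure D1:**
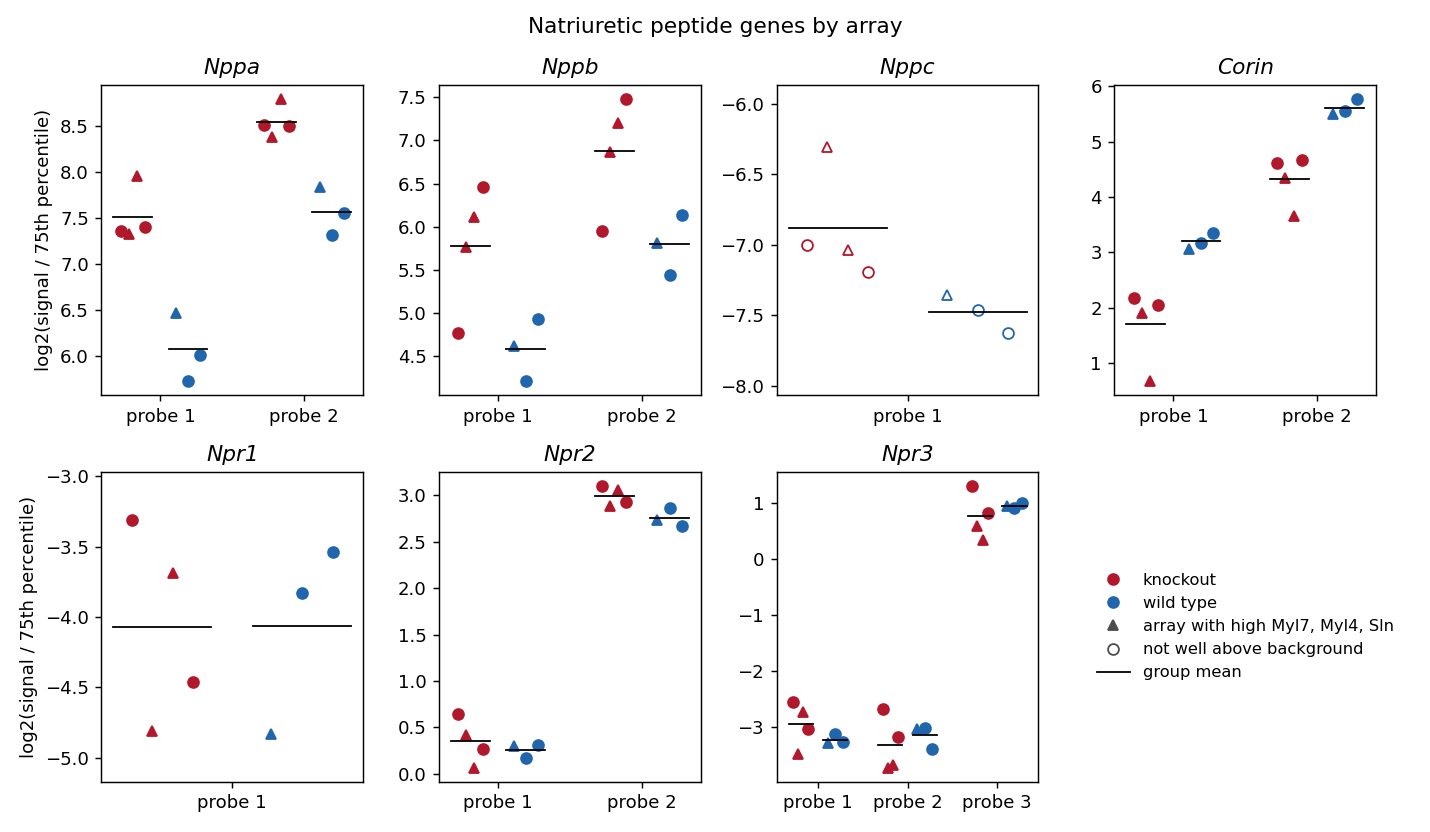
Log2 of signal over the 75th percentile of its array, for all 13 probes in a panel per gene, 1 point per array, knockout (red) left of wild type (blue), with a line at each group's mean, triangles for the 3 arrays with high atrial markers and open points for spots not well above background. The groups stand apart on both Nppa probes, both Corin probes and Npr2 probe 2, while Mutant_175 lies among the wild type arrays on both Nppb probes, and each panel has its own vertical scale.

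Nppa was higher in every knockout heart, on both of its probes. Its representative probe (probe 2, chr4:147376024-147376083 on mm9, plus strand) read 365, 332, 443 and 362 in knockout hearts against 229, 159 and 186.9 in wild type hearts. Every knockout array was above every wild type array, with means of 375 ± 47.3 (SD, n = 4) in knockout and 192 ± 35.05 (SD, n = 3) in wild type hearts. The log2 fold change was 0.98 ± 0.16 (SE), with a 95% interval of 0.60 to 1.36 and an adjusted p of 0.0029 by limma, a 1.97-fold rise. The second probe (probe 1, chr4:147375892-147375951) read 164, 161, 247 and 169 in knockout against 88.5, 52.9 and 64.3 in wild type hearts. Again the groups did not overlap, and Mutant_187 was the highest array on both probes. Probe 1 gave 1.44 ± 0.23 on the log2 scale (SE, adjusted p = 0.0023 over all probes by limma) and so a larger difference than probe 2, with intervals that overlap. On the signed scale, on which falls count as lower, the Nppa log2 fold change lay above 90.1% of all genes tested. It was called under each of the 21 alternative settings tried.

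Nppb was higher by a similar factor, with a wider spread, as 1 knockout array stayed at wild type level. Probe 2 (chr4:147361247-147361306, plus strand), which represents the gene, read 62.0, 117, 147 and 178 in knockout hearts against 56.4, 43.6 and 70.4 in wild type hearts. Mutant_175 lay within the wild type range and the other 3 knockout arrays lay above it. Means were 126 ± 49.6 (SD, n = 4) in knockout and 56.8 ± 13.4 (SD, n = 3) in wild type hearts. The log2 fold change was 1.07 ± 0.36 (SE), with a 95% interval of 0.23 to 1.92 and an adjusted p of 0.046 by limma, close to the threshold. Probe 1 (chr4:147360489-147360548), the sequence of which is given here because both probes of the gene order the arrays alike, read 27.2, 54.3, 69.0 and 87.8 in knockout against 24.5, 18.6 and 30.5 in wild type hearts.
Nppb probe 1: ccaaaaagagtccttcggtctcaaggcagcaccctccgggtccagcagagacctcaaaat
On this probe, too, Mutant_175 lay among the wild type arrays, and its log2 fold change was 1.19 ± 0.39 (SE, adjusted p = 0.044 over all probes by limma). Without Mutant_175 the Nppb log2 fold change was 1.38 (adjusted p = 0.0033 by limma). Leaving out any of the other 6 arrays ended the call, with adjusted p between 0.066 and 0.15.

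The order of the arrays differed between the 2 hormone genes. Mutant_187 had the highest Nppa and Mutant_188 the highest Nppb among knockout hearts, while Mutant_175 had the lowest Nppb and an Nppa signal above Mutant_182. In wild type hearts Wild Type_181 had the highest Nppa and Wild Type_189 the highest Nppb.

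Corin was lower in every knockout heart on both of its probes. Its representative probe (probe 2, chr5:72691284-72691343, minus strand) read 24.6, 20.2, 12.7 and 25.5 in knockout hearts against 45.3, 47.2 and 54.6 in wild type hearts. No knockout array reached the lowest wild type array, and Mutant_187 was the lowest of all. Means were 20.8 ± 5.84 (SD, n = 4) in knockout and 49.0 ± 4.93 (SD, n = 3) in wild type hearts. Corin fell by 1.29 on the log2 scale (SE 0.25, 95% interval -1.87 to -0.71, adjusted p = 0.0054 by limma), to 0.410 of the wild type level. Probe 1 (chr5:72692288-72692347) read 4.48, 3.75, 1.60 and 4.12 in knockout against 8.37, 9.03 and 10.2 in wild type hearts, also without overlap, which gave -1.50 ± 0.35 on the log2 scale (SE, adjusted p = 0.012 over all probes by limma). Corin was lower than in wild type under all 21 alternative settings, between -1.40 and -0.72, and was called under each.

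Corin is made by cardiomyocytes, and genes listed as ventricular myocyte markers were lower as well. The list is not confined to genes of the ventricle, and a fall particular to ventricular myocytes was not tested. Of 11 ventricular myocyte markers 10 were called lower and 0 higher, with a median log2 fold change of -1.25, beside 25.8% called lower and a median of -0.12 over all genes. The count of lower calls was 6 under spike-in scaling (median -0.68), under quantile normalization and without the 3 arrays with high atrial markers described below (median -1.13). Over all genes these settings called 7.44%, 22.8% and 12% lower. The summed level of the list, to which bright probes contribute most, was 2519 to 3332 in knockout and 6027 to 6489 in wild type hearts. Among the bright ones, Myl2 (-0.19), Myh6 (-0.23), Tnnt2 (0.015) and Actc1 (0.21) were not called under spike-in scaling. Myl3 (-0.68) and Mybpc3 (-1.90), also bright, were still called lower there. The size of the fall in the sum thus holds for the percentile scaling only. Mybpc3 (cardiac myosin-binding protein C, -2.47), Atp2a2 (the SERCA2 calcium pump, -2.19) and Tnni3 (cardiac troponin I, -2.21) had the smallest p-values of the list. In whole tissue, fewer cells of a type and less RNA per cell cannot be told apart, and the part of the myocyte content in the Corin difference was not tested. Nppa and Nppb, also products of cardiomyocytes, were called higher, and the part of the myocyte content in their values was not tested either.

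The guanylyl cyclase receptor genes gave no call at this scaling. The single Npr1 probe (chr3:90259171-90259664, minus strand) was dim, at 0.101, 0.0357, 0.0775 and 0.0454 in knockout against 0.0352, 0.0703 and 0.0862 in wild type hearts. The groups overlapped throughout, and the 95% interval of the log2 fold change, -1.02 to 1.02, allows a doubling or a loss of the same size (adjusted p = 1 by limma). Npr2 probe 2 (chr4:43664035-43664094, plus strand) read 8.598, 7.402, 8.32 and 7.61 in knockout hearts against 6.66, 7.26 and 6.38 in wild type hearts. The knockout arrays were all above the wild type arrays by a small margin, with a log2 fold change of 0.24 (SE 0.11, 95% interval -0.02 to 0.50, adjusted p = 0.13 by limma). The Npr2 difference passed the threshold under 4 other scalings, among them spike-in scaling (0.80, adjusted p = 0.0095 by limma) and quantile normalization (0.37, adjusted p = 0.027 by limma), where 18.6% of all genes were called higher and 22.8% lower. The other Npr2 probe (probe 1, chr4:43661226-43661285) read 1.56, 1.34, 1.05 and 1.21 in knockout against 1.23, 1.13 and 1.24 in wild type hearts, with overlapping groups (log2 fold change 0.09, adjusted p = 0.67 over all probes by limma).

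The Npr1 probe and Npr2 probe 1 come from the cyclase region that both receptors share, and they are printed because they are nearly alike; reading of one gene's RNA by the other's probe was not tested. Capitals mark the bases that differ where the probes overlap.
Npr1: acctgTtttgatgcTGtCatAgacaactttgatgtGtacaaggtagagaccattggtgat
Npr2 probe 1: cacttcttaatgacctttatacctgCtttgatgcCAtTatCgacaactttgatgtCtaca
Over their 40 shared bases 34 were identical (85.0%) and 6 differed. Npr2 probe 2 lies outside this stretch.

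Npr3, the clearance receptor, had 3 probes, represented by probe 3 (chr15:11769666-11769725, minus strand). It read 2.47, 1.495, 1.26 and 1.77 in knockout against 1.92, 1.87 and 2.003 in wild type hearts. Knockout arrays fell on both sides of the narrow wild type range, with Mutant_175 above it and the other 3 below it. The log2 fold change was -0.19 (SE 0.22, 95% interval -0.71 to 0.33, adjusted p = 0.52 by limma). Probes 1 and 2 gave 0.28 and -0.17 without a call, so the sign depended on the probe. Both were dim, with mean levels of 0.133 and 0.105 in knockout and 0.107 and 0.113 in wild type hearts. Probe 1 was assigned through another transcript record than probes 2 and 3, and whether it reads the same RNA was not tested. Under spike-in scaling probe 1 passed the threshold (0.84, adjusted p = 0.018 over all probes by limma). Npr3 also changed sign under spike-in scaling (0.38) and without the 3 arrays described next (0.11). The Nppc probe (chr1:88563020-88563079, minus strand) was not well above background on any array, at 7.24, 14.2, 8.73 and 5.74 signal units in knockout against 4.36, 3.57 and 3.504 in wild type hearts, and no fold is given.

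Npr1 and Npr3 are receptors of endothelium and endocardium as well as of myocytes, and marker lists of these and other cells were read beside them, where 16.3% of all genes were called higher and 25.8% lower. Of 10 endothelial markers 0 were called higher and 3 lower (median -0.25), a share near that of all genes, and spike-in scaling gave 1 higher and 0 lower (median 0.31). The list had a summed level of 86.2 to 122 in knockout and 118 to 122 in wild type hearts. Of 6 endocardial markers 3 were called higher, namely Vwf (1.14), Plvap (1.48) and Tmem100 (1.07, with overlapping groups). The other 3 were not called, namely Nfatc1 (-0.46, adjusted p = 0.06 by limma, groups apart), Cytl1 (0.002) and Hapln1 (0.82). The summed level of the list, most of it from Vwf, was 31.5 to 44.5 in knockout and 18.8 to 18.9 in wild type hearts. Of 10 fibroblast markers 6 were called higher (median 0.67), with the largest rises in Col1a1 (3.14) and Col1a2 (2.81). The other 4 were not called, namely Thy1 (0.22), Dpt (0.013), Ddr2 (-0.032) and Gsn (-0.17). The summed level of the list, most of it from Dcn and Gsn, was 861 to 948 in knockout and 602 to 644 in wild type hearts. Under spike-in scaling, where 37.2% of all genes were called higher, the endocardial and fibroblast counts were 3 and 6. Of 10 smooth muscle and pericyte markers 2 were called higher and 3 lower (median 0.25), near the shares of all genes, and spike-in scaling gave 5 higher and 2 lower. Their summed level, to which bright probes contribute most, was 86.6 to 111 in knockout and 137 to 138 in wild type hearts. Their part in the receptor values was not tested.

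**Figure D2:**
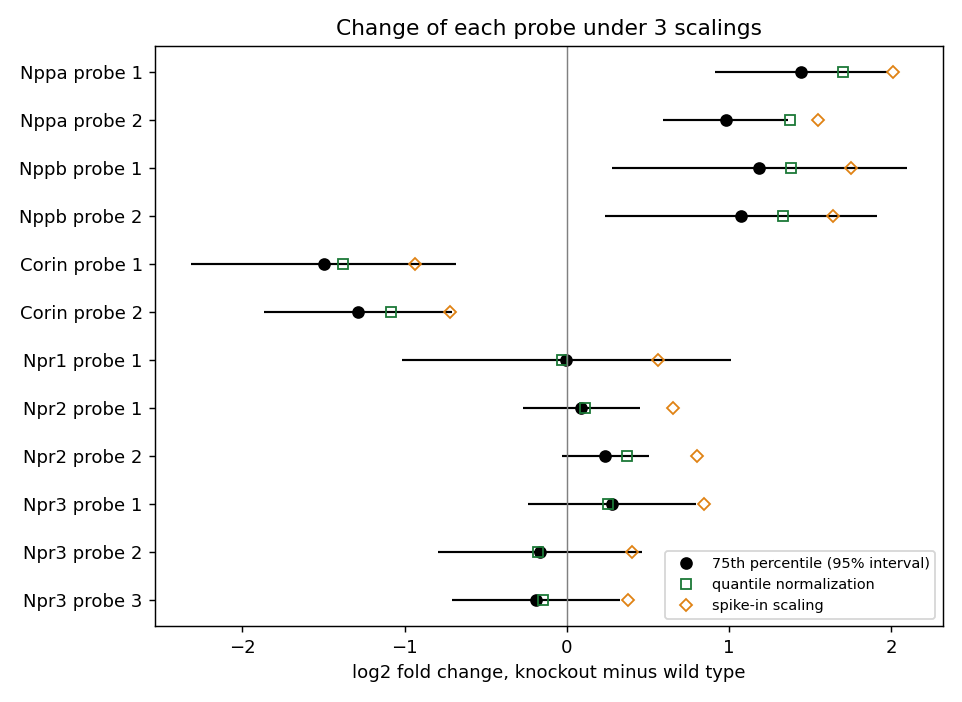
Log2 fold change (knockout minus wild type) of the 12 tested probes under 3 scalings of the arrays, with 95% intervals for the 75th percentile scaling (filled points). Spike-in scaling (diamonds) lies to the right of the other scalings on every probe, Nppa and Nppb stay above 0 and Corin below 0, while Npr1 and Npr3 probes 2 and 3 lie below 0 at the percentile scaling and above it at spike-in scaling.

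Nppa is an atrial gene, and some atrial markers set 3 arrays, of both genotypes, apart. Myl7, the atrial myosin light chain, read 0.354, 39.3, 59.2 and 0.117 in knockout against 37.6, 0.121 and 0.823 in wild type hearts. Myl4 read 1.90, 93.9, 192 and 2.13 in knockout against 45.6, 2.44 and 3.74 in wild type hearts. Sln (sarcolipin) followed the same arrays and was well above background on 2 of 4 knockout and 2 of 3 wild type arrays. Mutant_182, Mutant_187 and Wild Type_181 were thus high for these 3 markers, which were picked from the list of 10 after their values were seen, and the other 4 arrays low. Dkk3 was highest on the same arrays within each group, at 7.81, 15.4, 15.4 and 7.44 in knockout against 6.39, 1.30 and 1.25 in wild type hearts, and was called higher (2.31, adjusted p = 0.019 by limma). Bmp10, Nr2f1 and Nr2f2 did not set these arrays apart. Of the 10 atrial markers 2 were called higher and 2 lower (median 0.33), beside 16.3% and 25.8% of all genes. Their summed level was 32.3 to 319 in knockout and 17.1 to 126 in wild type hearts.

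Nppa was higher in knockout hearts within each kind of array, a split made after the marker values were seen. The cause of the Nppa difference was not tested. Among the 4 arrays low for atrial markers it differed by 1.08 on the log2 scale between 2 knockout and 2 wild type hearts (adjusted p = 0.021 by limma without the other 3 arrays). Among the 3 high arrays it differed by 0.75 between 2 knockout and 1 wild type heart, with no test. Corin differed by -1.02 in the low arrays (adjusted p = 0.023 by limma) and by -1.50 in the high ones. Nppb differed by 0.93 in the low arrays (adjusted p = 0.31 by limma) and by 1.22 in the high ones, so its direction was kept and its call was lost, as it was with the atrial arrays marked as a term in the fit (1.04, adjusted p = 0.069 by limma). Without the 3 arrays 8.11% of all genes were called higher and 12% lower, and with the term 16.3% and 25.2%.

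**Figure D3:**
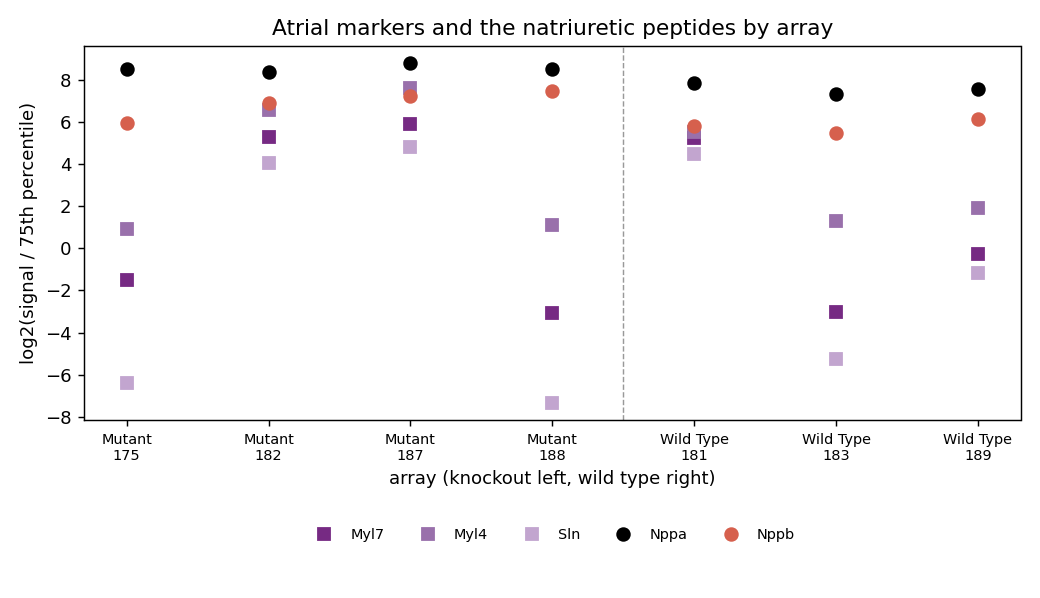
Log2 of signal over the 75th percentile of its array, on each array, knockout arrays left of the dashed line and wild type arrays right of it, for the atrial markers Myl7, Myl4 and Sln (squares) and for Nppa and Nppb (circles). The markers stand high on Mutant_182, Mutant_187 and Wild Type_181, and Nppa is above every wild type array on every knockout array.

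The RNA of another gene on the atrial list was higher in knockout hearts without following those 3 arrays. Pam, an amidating enzyme that is the main membrane protein of atrial secretory granules, where ANP is stored, read 23.9, 19.6, 19.6 and 17.7 in knockout against 7.15, 6.54 and 7.12 in wild type hearts. All knockout arrays were above all wild type arrays (log2 fold change 1.53, adjusted p = 0.00016 by limma). Kcna5, a potassium channel gene that was also on the atrial list, did not follow those arrays either. It read 0.683, 0.704, 0.894 and 0.888 in knockout against 2.11, 2.32 and 2.78 in wild type hearts and was lower (-1.60, adjusted p = 3e-04 by limma).

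Around the peptide genes, the differences did not form 1 block. Within 100 kb of the Nppa probe on mm9, Clcn6, a chloride transporter gene on the opposite strand whose probes start 2.9 kb beyond Nppa, had 4 probes. Those at 4.2 and 4.7 kb were called higher (1.01 and 0.87, adjusted p = 0.0093 and 0.029 over all probes by limma), and those at 2.9 and 13.4 kb were not (0.34 and -0.63). The 3 Agtrap probes and the 2 Plod1 probes were not called. One probe of 2510039O18Rik, at -54.7 kb, and that of Gm13202, at 66 kb, were called lower (-0.48 and -0.50). Of the 7 flanking genes listed, which reach farther than this span, 0 were called higher and 1 lower, beside 16.3% and 25.8% of all genes. The 1 called was Mfn2, a mitochondrial fusion gene (-1.08, adjusted p = 0.0017 by limma). That call was lost under spike-in scaling (-0.51, adjusted p = 0.072 by limma). There 2 of the 7 were called higher and 0 lower, beside 37.2% and 7.44% of all genes.

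**Figure D4:**
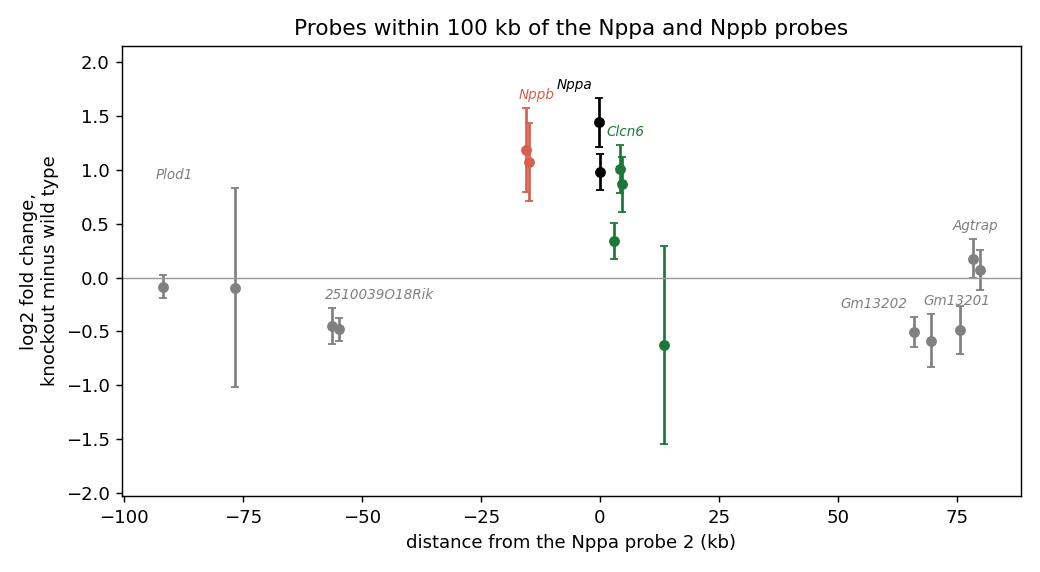
Log2 fold change (knockout minus wild type) with its standard error for probes of the genes reported within 100 kb of the Nppa probe, against distance in kb. The 4 Nppa and Nppb probes and 2 Clcn6 probes were called higher, and probes farther out scatter around 0 or below.

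Among enzymes that cut or degrade the peptides, calls depended on the scaling. Of 10 genes listed 8 were tested, with 2 called higher, 1 lower and a median of 0.27, beside 16.3% of all genes called higher and 25.8% lower. Under spike-in scaling 5 were called higher and 0 lower, beside 37.2% and 7.44% of all genes. Furin, a proprotein convertase that cleaves pro-BNP and pro-CNP, read 265, 253, 233 and 267 in knockout against 360, 408 and 400 in wild type hearts (fell by 0.61 on the log2 scale, adjusted p = 0.0038 by limma). The call of Furin was lost under quantile normalization (-0.26, adjusted p = 0.064 by limma), spike-in scaling (-0.048, adjusted p = 0.83 by limma) and without the arrays with high atrial markers (adjusted p = 0.053 by limma), and its sign turned when its probes were averaged (0.24). Pcsk5, a related convertase, was higher, at 0.825, 0.845, 0.798 and 0.602 in knockout against 0.202, 0.235 and 0.171 in wild type hearts (1.92, adjusted p = 0.00019 by limma). Ece1, the endothelin-converting enzyme, was higher by 0.53 (adjusted p = 0.0048 by limma).

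Cyclic GMP is also made outside the receptors, by soluble guanylyl cyclase under nitric oxide. The list counts below stand beside 16.3% of all genes called higher and 25.8% lower, or 37.2% and 7.44% under spike-in scaling. Of 9 genes of this arm 7 were tested, with 3 called lower and 0 higher (median -0.57): the nitric oxide synthases Nos2 (-0.82) and Nos3 (-0.57) and the cyclase subunit Gucy1a2 (-0.57). None of these 7 was called under spike-in scaling, where the median was -0.00. Downstream, 3 of 12 effectors were called higher and 2 lower (median -0.22), and under spike-in scaling 5 were called higher and 0 lower (median 0.34). Prkg1, the cyclic GMP-dependent kinase, read 3.64, 3.17, 2.44 and 3.48 in knockout against 0.689, 0.663 and 0.709 in wild type hearts, without overlap (2.197, adjusted p = 8.3e-05 by limma). Its substrate Vasp was higher (0.99) and Mrvi1, the kinase's partner at the calcium store, lower (-1.38). Rgs2, a brake on G protein signalling that the kinase activates, was called higher (1.04) and Rgs4 lower (-0.73). Under spike-in scaling the calls of Mrvi1 (-0.81, adjusted p = 0.057 by limma) and Rgs4 (-0.16, adjusted p = 0.62 by limma) were lost. Of 12 cyclic nucleotide phosphodiesterases 3 were called lower and 0 higher (median -0.16), namely Pde4a (-1.66), Pde2a (-0.67) and Pde1c (-0.65). The share called lower was near that of all genes. Of the 3 named, Pde2a is stimulated by cyclic GMP. Under spike-in scaling 5 of the 12 were called higher and 1 lower.

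Transcription factors known to act on the Nppa or Nppb promoter were read alongside. Of 20 such genes 6 were called higher and 1 lower, beside 16.3% and 25.8% of all genes, with a median of 0.32 beside -0.12. Spike-in scaling gave 12 higher and 0 lower, beside 37.2% and 7.44% of all genes, and leaving out the 3 arrays with high atrial markers gave 2 higher and 1 lower. Fos, an AP-1 subunit, read 6.56, 5.33, 5.95 and 6.28 in knockout against 3.21, 2.77 and 2.13 in wild type hearts (1.17, adjusted p = 0.0013 by limma). Srf, which binds the CArG box, read 19.98, 14.0, 17.0 and 15.7 in knockout against 8.21, 7.70 and 8.57 in wild type hearts (1.02, adjusted p = 0.0014 by limma). Neither group overlapped the other for Fos or Srf. Tbx2, a T-box repressor, was higher by 0.79, Klf13 by 0.56, Nkx2-5 by 0.45 and Gata4 by 0.35. Tbx5, a T-box activator of Nppa, was called lower (-0.71), a call lost under spike-in scaling (-0.14, adjusted p = 0.64 by limma).

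**Figure D5:**
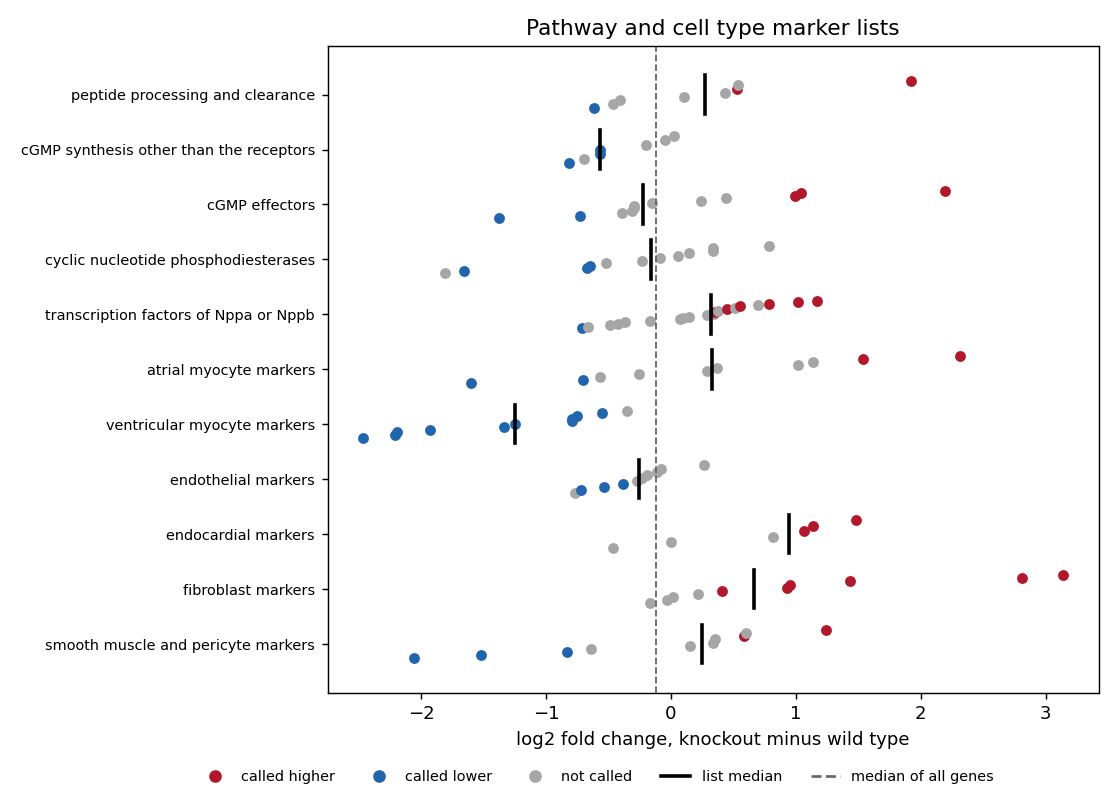
Log2 fold change (knockout minus wild type) of every tested gene of each list, 1 point per gene, coloured by call, with the list median as a bar and the median of all genes as a dashed line. Ventricular myocyte markers lie mostly below that line, and the 2 fibroblast collagens reach farthest to the right.

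For each tested gene the 3 most similar profiles were sought among 14111 genes that were well above background on all 7 arrays, by Pearson's r of log2 values over the 7 arrays. As both groups enter, r is high for any gene that separates the groups in the same way, and 1065 genes exceeded 0.9 for Nppa, 235 for Nppb and 1922 for Corin. Nppa was nearest to Mpp5 (0.999), Ccn2 (0.993) and Snx2 (0.992). Nppb was nearest to Mt3 (0.995), Ptgfrn (0.979) and Ltbp4 (0.976). Corin was nearest to Rasgrp4 (0.998), Cox7b (0.996) and Scp2 (0.995). Of the receptors, Npr1 was nearest to Pi4kb (0.989), Npr2 to Rbm34 (0.985) and Npr3 to Mavs (0.991).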

How the data were processed

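Per the labels' protocols, a tissue RNA kit gave the total RNA, which was labelled with Cy3 together with spike-in RNA and hybridised to Agilent SurePrint G3 arrays. Per the file headers, the deposited intensity values are the processed signal of Agilent Feature Extraction 10.7.3.1, background-corrected on a linear scale, with probe positions on mm9. The authors' deposited value table holds the same signal (99.6% of cells within 0.01 on the log2 scale) and was an alternative only.

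Outlier and control spots were left out (0 saturated), spots of a probe were averaged, and log2 signal minus the array's 75th percentile was used. A probe had to be well above background on 3 or more arrays (34481, or 60.9%, were). Where a gene had several such probes, the one of highest mean stood for it. Names came through accessions (32994 probes matched, 1535 renamed) among RefSeq genes of GRCm38.p6. All genes were fitted with limma 3.58.1 in R 4.3.3 and its data.table package, version 1.17.8, knockout minus wild type, and figures drawn with matplotlib 3.10.9. The method was tested on simulated data. The number of arrays limits the precision.

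The members and the 12 gene lists were chosen with earlier results of these data known. The genes named are all members, Smarca4 and Smarca2, up to 3 genes per list with the smallest p, and the 3 most similar profiles per member. Rgs2, Rgs4, Klf13, Nkx2-5, Gata4, Tbx5, Myl7, Myl4, Sln, Dkk3, Bmp10, Nr2f1, Nr2f2, Nfatc1, Cytl1, Hapln1 and the neighbours within 100 kb were named in addition, the genes ahead of the neighbours after their values were seen. Myl2, Myl3, Myh6, Tnnt2, Actc1, Dcn, Gsn, Thy1, Dpt and Ddr2 were also named after their values were seen. Some genes that these rules name are left out of the text and plots. Alternatives (18, with 3 added after the data were seen) covered scaling, background correction, filters, probe choice, prior, weights, each array left out, the arrays with high atrial markers, and slide column.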

Additional observations from a re-analysis of the deposited data

Results flagged for a closer look

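Per-array values of 48 genes or probes were screened in the 4 knockout arrays for a single array far from the others (its gap to the nearest array, as a share of the whole range, above Dixon's 95% critical value), which chance gives in about 1 of 20 groups. In all, 2 exceeded it, both through Mutant_187. Nppa probe 1 had a ratio of 0.88, with Mutant_187 high at 247 beside 161 to 169 in the other knockout arrays. Abcc9, a potassium channel subunit of pericytes and muscle, had a ratio of 0.863, with Mutant_187 low at 4.38 beside 6.21 to 6.56 in the other knockout arrays.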

How the results depend on the processing

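Over the 21 alternatives Nppa ranged from 0.85 to 1.55 and Corin from -1.40 to -0.72, and both were called in each. Nppb ranged from 0.87 to 1.64 and was called in 12 of 21. It missed the threshold with no filter on dim probes (1.07, adjusted p = 0.079 by limma), without the 3 arrays high for atrial markers (0.93) and with these as a term (1.04), and leaving out 1 array at a time gave 0.87 to 1.38. In those 3 settings 1 of the tested members was called higher, against 1 to 2 with 1 array left out. Npr2 passed under quantile normalization (0.37), a percentile taken over probes detected on every array (0.35), spike-in scaling (0.80) and normexp with quantile normalization (0.38). Npr1 changed sign under that percentile (0.11), spike-in scaling (0.56), normexp (0.015) and the atrial term (0.11), and ranged from -0.38 to 0.26 with 1 array left out. Npr3 changed sign under spike-in scaling (0.38) and without the atrial arrays (0.11). Spike-in scaling also turned Tie1 (0.028), Tek (0.18) and Agtrap (0.081) positive, and averaging probes turned Furin (0.24).

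Genes called higher and lower numbered 8538 and 1710 under spike-in scaling and 1862 and 2765 without the atrial arrays. With 1 array left out they ranged from 2645 to 4529 and from 4087 to 6775. The cause of these changes was not tested. Npr1, dim on all arrays, and Nppc, below background, are limited by signal. No paired analysis was possible because knockout and wild type arrays share no replicate number. Arrays of both groups do share columns of the slide, and a fit took slide column as a block, in which Mutant_175 stands alone in its column and adds nothing. Nppa was 0.99, Nppb 1.38 and Corin -1.39, each called (adjusted p = 0.02, 0.0052 and 0.0075 by limma). For Nppb this equals the value without Mutant_175, the knockout array at wild type level. The blocked fit therefore cannot show whether the Nppb call holds with that array.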
